A study of Homo sapiens with 4 samples.

Results

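The folate one-carbon genes described here are MTHFD1, SHMT1 and TYMS in the cytosol, MTHFD2, MTHFD1L and SHMT2 in the mitochondria, the folate carrier SLC19A1 and the folate-retaining enzyme FPGS. They were chosen by name, for their place in folate metabolism, and are 8 of the 29833 genes in the expression table. The RNA came from Reh-6-MPR, a 6-mercaptopurine (6-MP) resistant line made from Reh, an established human cell line of B-lineage acute lymphoblastic leukemia (B-ALL) whose genotype is labelled WT. For 48 h the cells were kept with PBS as vehicle, with 4 mM histidine, with 1.0 μg/mL 6-MP, or with both agents. Each treatment has 1 library, so no difference has a replicate check. The libraries set each agent alone and both together against vehicle-treated resistant cells. How many clones the resistant line comprises is not given in the sources used here, and the parental Reh line was not analysed here.

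Folate carries single carbon units, most of them taken from serine by the SHMT enzymes, into purines, thymidylate and methionine. Mitochondrial enzymes largely run from serine to formate, which leaves for the cytosol, where MTHFD1 returns it to the folate pool for purine synthesis. Leukemia cells depend on this supply, antifolates enter through SLC19A1 and are held in the cell by FPGS, and the breakdown of histidine uses tetrahydrofolate in its last steps.

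Values are given as FPKM, which scales the reads of a gene to its length and to library depth. Whole reads were recovered from the deposited values, and the library totals behind the FPKM ran from 12899122 reads in the combined treatment, the shallowest library, to 15486376 reads with histidine. Ratios between libraries carry exact Clopper-Pearson 95% intervals of the reads. These intervals cover counting error only and compare libraries, not treatments. Fold changes are differences of log2(FPKM + 1), a scale that shrinks the changes of weakly expressed genes such as SHMT1. They were computed where the mean FPKM over the libraries reached 1, in 12750 genes with all 8 among them. The fold threshold was a difference of 1 on this log2 scale in either direction. In a bulk library, fewer cells of a kind and less RNA per cell cannot be told apart. Of 10 B-lineage markers 9 were analysed, among them CD79A, CD22 and PAX5, and all had a mean FPKM above 1, with a summed FPKM of 1540 to 1630 per library. Of other cell types, the summed myeloid markers (4 of 5 analysed, 1 at a mean FPKM of at least 1, MPO) were at 27.0 to 31.2 FPKM in the other libraries and 43.7 in the combined treatment. The T-cell marker TRAC, the 1 of 5 analysed, was at 11.6 to 12.2 and 32.1 in the same way. Erythroid markers (3 of 5 analysed) summed to 0.159 to 0.492 FPKM and stromal and epithelial markers (3 of 5 analysed) to 38.9 to 46.5, both highest in the combined treatment, and no analysed marker was listed at 0 in all libraries. The part of depth and of these markers in the results below was not tested.

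In the combined treatment, MTHFD1, MTHFD1L, SHMT1, SLC19A1 and FPGS were lower than with vehicle and MTHFD2, SHMT2 and TYMS were higher. Of the mitochondrial enzymes MTHFD1L was lower while MTHFD2 and SHMT2 were higher, and of the cytosolic enzymes MTHFD1 and SHMT1 were lower while TYMS was higher, a call that is lost with scaling by the median ratio of the libraries. The interval of the read ratio excluded 1 in 8 of 8 genes, as it did in 63.5% of all genes tested. Intervals narrow with more reads, and the shares over all genes, here and below, were not matched for read count. All of the 8 but SHMT1 lay between the 64.4 and 95.4 percentiles of mean FPKM among genes tested. Higher values beyond the interval were found in 3 of the 8 genes, against 42.7% of all genes, and lower values in 5 of the 8, against 20.8%. None of the 8 passed the fold threshold, which 6.53% of all genes tested passed. The median log2 fold change of the 8 genes was -0.39, and that of all genes tested was 0.13.

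**Figure D1:**
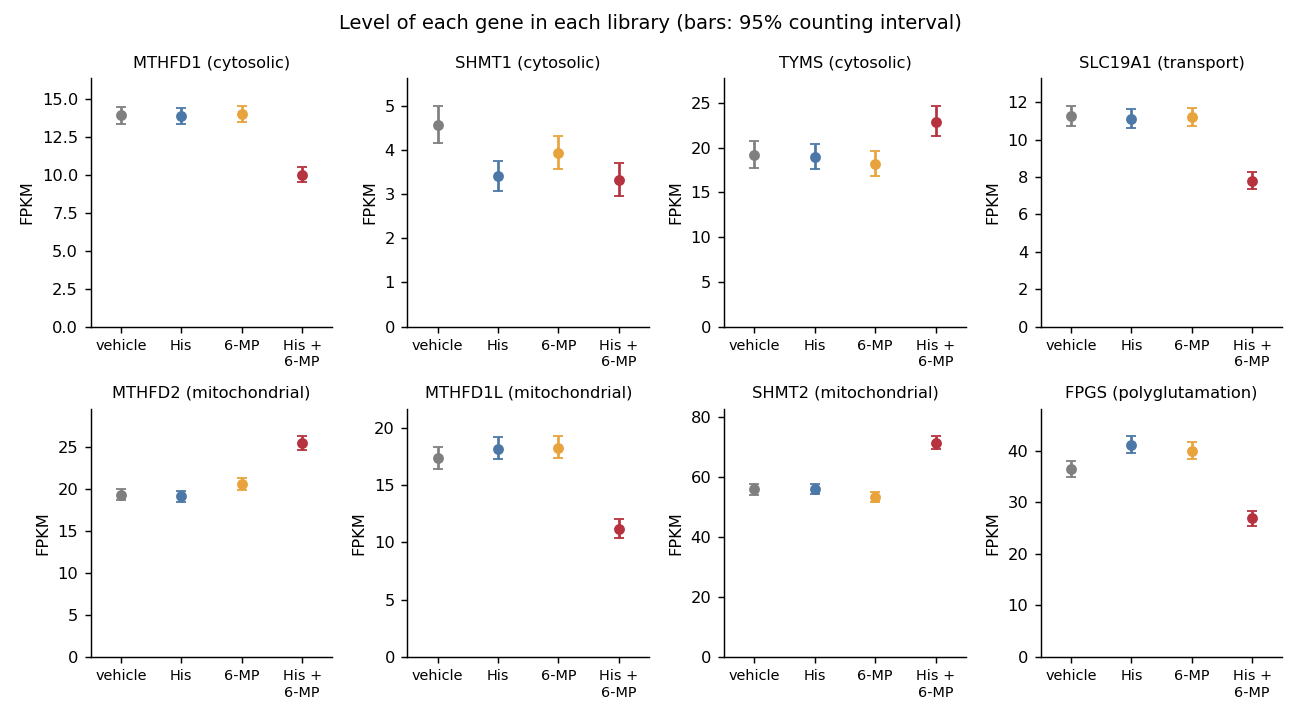
FPKM of each gene (y axis, from 0, its own scale in each panel) in the vehicle, histidine (His), 6-MP and combined libraries (x axis). Points are single libraries and bars are 95% counting intervals. The combined treatment is the highest or lowest library in all 8 panels, and in the SHMT1 panel it lies beside histidine, 3.32 against 3.41 FPKM.

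MTHFD1 (ENSG00000100714, chr14:64388031-64463457, plus strand, GRCh38) encodes the trifunctional cytosolic enzyme that interconverts formate-derived and methylene folates. Its level was 13.9 FPKM in vehicle, 13.9 after histidine, 14.0 after 6-MP and 10.0 after both, from 2436, 2621, 2622 and 1578 reads. Vehicle and the monotherapies differed by less than counting error and the combined treatment lay below all of them. The combined level was 0.719 times that of vehicle (0.674 to 0.766), a log2 fold change of -0.44, and 9.12% of all genes tested were at least as low.

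SHMT1 (ENSG00000176974, chr17:18327860-18363563, minus strand), the cytosolic serine hydroxymethyltransferase, was the lowest of the 8 genes. It was measured at 4.58 FPKM in vehicle, 3.41 after histidine, 3.94 after 6-MP and 3.32 after both (477, 384, 440 and 312 reads). All treated libraries lay below vehicle, and histidine alone was as low as the combination within counting error, with a ratio of the combination to histidine of 0.975 (0.837 to 1.14). Against vehicle the ratio was 0.744 with histidine (0.649 to 0.853), 0.861 with 6-MP (0.754 to 0.982) and 0.726 with both (0.627 to 0.839). The difference with histidine, -0.34 on the log2 scale, stood out more from its background than any other monotherapy value of the 8 genes, since 3.49% of all genes tested were at least as low in that comparison.

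TYMS (ENSG00000176890, chr18:657653-673578, plus strand), thymidylate synthase, uses methylene folate to make dTMP and releases dihydrofolate. Its level was 19.2 FPKM in vehicle, 19.0 after histidine, 18.2 after 6-MP and 22.9 after both (666, 711, 675 and 716 reads). Only the combined library stood above the others, at 1.19 times vehicle (1.07 to 1.33) and a log2 fold change of 0.24, and 39.2% of all genes tested were at least as high. That value lay 0.11 above the median of all genes tested, and with scaling by the median ratio the interval against vehicle included no difference, -0.06 to 0.25 on the log2 scale. TYMS shares its locus with genes on the opposite strand. ENOSF1 was at 6.35, 7.65, 5.76 and 5.53 FPKM in the same order of libraries, from 1036, 1349, 1007 and 812 reads, more reads than TYMS in each, and TYMSOS at 0.352, 0.375, 0.555 and 1.08 FPKM (13, 15, 22 and 36 reads). Whether the counting used strand is not given in the sources used here, and the part of reads from these genes in the TYMS values was not tested.

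MTHFD2 (ENSG00000065911, chr2:74186172-74217565, plus strand) is the mitochondrial dehydrogenase and cyclohydrolase that proliferating cells express. It was at 19.3 FPKM in vehicle, 19.1 after histidine, 20.6 after 6-MP and 25.4 after both (3160, 3382, 3609 and 3752 reads). The combined library was the highest, 1.32 times vehicle (1.26 to 1.38) with a log2 fold change of 0.38 (0.23 with median-ratio scaling), while 27.3% of all genes tested were at least as high in that comparison. With 6-MP alone the ratio to vehicle was 1.07 (1.02 to 1.12).

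MTHFD1L (ENSG00000120254, chr6:150865679-151101887, plus strand), the mitochondrial synthetase that releases formate, had the widest range of the 8 genes over the libraries on the log2(FPKM + 1) scale, 0.67. It was at 17.4 FPKM in vehicle, 18.2 after histidine, 18.3 after 6-MP and 11.2 after both, from 1216, 1379, 1373 and 704 reads. The monotherapies and vehicle lay together and the combined treatment lay well below them. The combined level was 0.643 times that of vehicle (0.585 to 0.706), with a log2 fold change of -0.60, and 5.25% of all genes tested were at least as low.

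SHMT2 (ENSG00000182199, chr12:57229573-57234935, plus strand), the mitochondrial serine hydroxymethyltransferase, was the most abundant of the 8 per length. Its values were 55.8 FPKM in vehicle, 55.9 after histidine, 53.4 after 6-MP and 71.4 after both (3669, 3978, 3760 and 4227 reads). Vehicle and histidine were alike, and the combined library was the highest at 1.28 times vehicle (1.22 to 1.34), a log2 fold change of 0.35. That value was 0.20 with median-ratio scaling, and 29.9% of all genes tested were at least as high. Against 6-MP the combined ratio was 1.34 (1.28 to 1.40), a log2 fold change of 0.41 that was 0.27 with median-ratio scaling.

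SLC19A1 (ENSG00000173638, chr21:45493572-45573365, minus strand), the reduced folate carrier, was at 11.3 FPKM in vehicle, 11.1 after histidine, 11.2 after 6-MP and 7.79 after both (1814, 1934, 1932 and 1129 reads). The first 3 values were within counting error of each other. The combined level was 0.691 times vehicle (0.641 to 0.744), a log2 fold change of -0.48, with 7.85% of all genes tested at least as low.

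FPGS (ENSG00000136877, chr9:127794597-127814327, plus strand), folylpolyglutamate synthase, adds the glutamate tail that keeps folates and antifolates in the cell. It was at 36.4 FPKM in vehicle, 41.2 after histidine, 40.0 after 6-MP and 26.9 after both, from 2046, 2506, 2413 and 1363 reads. Each monotherapy lay above vehicle and the combination lay below it. The ratio to vehicle was 1.13 with histidine (1.07 to 1.20), 1.10 with 6-MP (1.04 to 1.17) and 0.739 with both (0.690 to 0.792). Of the 8 genes, FPGS alone lay beyond the counting interval in opposite directions between a monotherapy and the combination, each against vehicle, as did 7.55% of all genes tested. With scaling by the median ratio SHMT2 did so too (7.15% of all genes), lower with 6-MP at a log2 read ratio of -0.07 (-0.14 to -0.007) and higher with both at 0.20 (0.13 to 0.26).

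**Figure D2:**
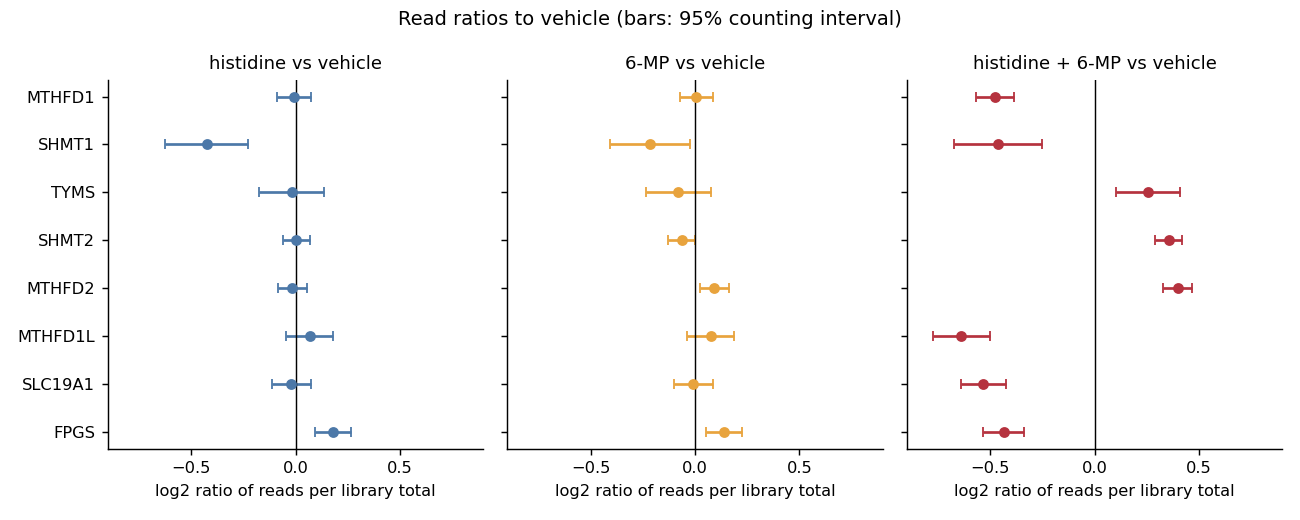
Log2 ratio of reads per library total to vehicle (x axis) for each gene (y axis), with histidine, 6-MP and both in separate panels. Points are single library pairs, bars are 95% counting intervals and the line marks no difference. SHMT1 and FPGS lie off the line with histidine, SHMT1, MTHFD2 and FPGS with 6-MP, and all 8 genes with both.

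Histidine alone left most of the 8 genes near vehicle. The interval excluded no difference in 2 of 8, against 21.6% of all genes tested. FPGS was higher (12.9% of all genes) and SHMT1 lower (8.73%), and none passed the fold threshold, which 1.33% of all genes passed. Apart from these genes and MTHFD1L, at a log2 fold change of 0.06, the values lay between -0.02 and 0.003. With 6-MP alone the interval excluded no difference in 3 of 8, against 17.9% of all genes tested. MTHFD2 and FPGS were higher at 0.09 and 0.13 (9.98% of all genes were higher) and SHMT1 was lower at -0.18 (7.92% were lower). None passed the fold threshold, which 1.18% of all genes tested passed. With median-ratio scaling 2 genes were higher and 2 lower with 6-MP, SHMT2 among the latter (9.0% and 9.06% of all genes). With histidine 1 was higher and 1 lower under that scaling (9.95% and 12.4%). The median absolute log2 fold change of the 8 genes was 0.019 with histidine and 0.074 with 6-MP, beside 0.087 and 0.080 over all genes tested.

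The combined treatment was also set against each monotherapy. All 5 comparisons share libraries, so they are not independent of each other. Against 6-MP the interval excluded no difference in 8 of 8 genes (63.4% of all genes tested), with 3 higher (42.2%) and 5 lower (21.2%), and none passed the fold threshold (6.02%). Against histidine it did so in 7 of 8 (63.2%), all but SHMT1, with 3 higher (41.2%) and 4 lower (22.1%), and none passed the fold threshold (5.55%). MTHFD1L was the lowest in both, with log2 fold changes of -0.67 against 6-MP and -0.66 against histidine, and FPGS followed at -0.56 and -0.60. SHMT2 was the highest against 6-MP at 0.41, and MTHFD2 the highest against histidine at 0.40 (each 0.27 with median-ratio scaling). The combined treatment was the highest or lowest of the 4 libraries in 8 of 8 genes, and beyond the counting interval of every other library in 7 of 8, where the shares over all genes tested were 82.5% and 50.8%. It was higher than every other library in 3 of the 8 genes (34.2% of all genes tested) and lower in 4 (16.6%), and TYMS is 1 of the 3 only without the scaling described below.

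**Figure D3:**
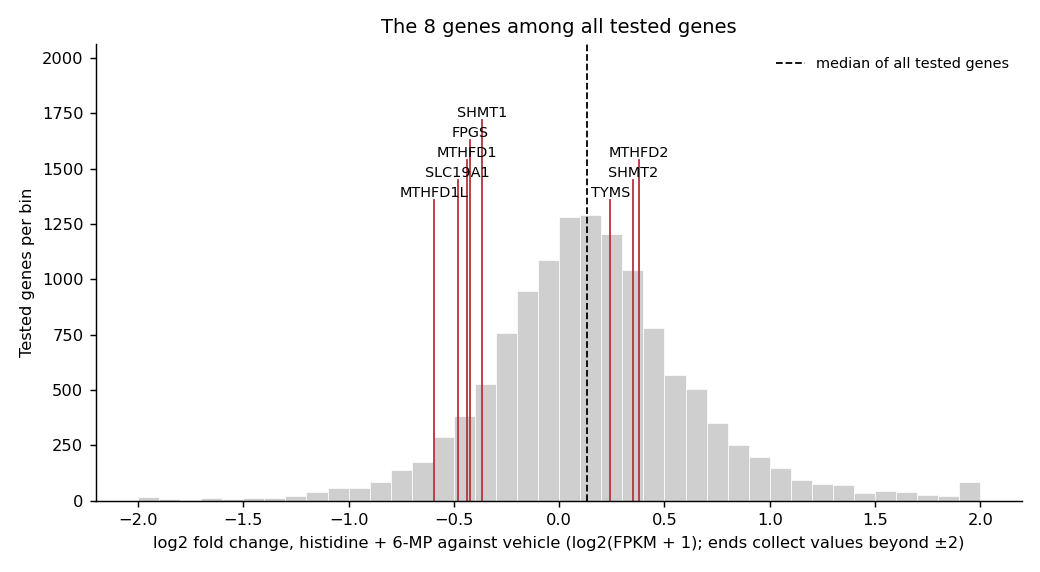
Number of tested genes (y axis) by log2 fold change of the combined treatment against vehicle (x axis, bins of 0.1, values beyond 2 in either direction collected at the ends). Red lines mark the 8 genes and the dashed line the median of all genes tested, 0.13. MTHFD1L, SLC19A1, MTHFD1, FPGS and SHMT1 lie to the left between -0.60 and -0.37 and TYMS, SHMT2 and MTHFD2 to the right between 0.24 and 0.38.

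Because the median of all genes moved by 0.13, the log2 fold changes were also taken relative to it. They were then -0.73 for MTHFD1L, -0.61 for SLC19A1, -0.57 for MTHFD1, -0.55 for FPGS and -0.50 for SHMT1. For the higher genes they were 0.25 for MTHFD2, 0.22 for SHMT2 and 0.11 for TYMS, so each gene kept its direction. With read ratios scaled by the median ratio, 2 of the 8 genes were higher and 5 lower than vehicle beyond the interval, and over all genes tested the shares were 30.2% higher and 30.8% lower in place of 42.7% and 20.8%. Against 6-MP they were 3 higher and 5 lower (30.2% and 31.0% of all genes). Against histidine they were 2 higher and 4 lower (30.5% and 31.2%), and TYMS lost its call, at -0.01 to 0.29. Beyond every other library 2 genes were then higher, MTHFD2 and SHMT2, and 4 lower (23.2% and 24.4% of all genes).

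Ratios between genes of the same library do not depend on library scaling, but their level depends on the gene lengths used. SHMT2 exceeded SHMT1 per length by 12.2 times in vehicle, 16.4 after histidine, 13.5 after 6-MP and 21.5 after both. Relative to vehicle this ratio was 1.35 times higher with histidine (1.17 to 1.56) and 1.76 times higher with both (1.51 to 2.05). MTHFD2 over MTHFD1 was 1.38, 1.38, 1.47 and 2.54 in the same order, 1.83 times higher with both than with vehicle (1.69 to 1.99). For the synthetases, MTHFD1L over MTHFD1 was 1.25, 1.31, 1.31 and 1.11, a relative change with both of 0.894 (0.797 to 1.00) that reached no difference. The mitochondrial pair MTHFD2 over MTHFD1L was 1.11, 1.05, 1.12 and 2.28, which is 2.05 times higher with both than with vehicle (1.85 to 2.28). With GENCODE 29 lengths MTHFD2 over MTHFD1L was 2.68 in vehicle and 5.49 with both, MTHFD2 over MTHFD1 was 2.50 and 4.58, and MTHFD1L over MTHFD1 fell below 1, at 0.932 and 0.833, while the changes relative to vehicle are the same. The ratios of MTHFD2 over MTHFD1 and of SHMT2 over SHMT1 were thus highest in the combined library. MTHFD2L, the other mitochondrial dehydrogenase of the pathway, was at 12.3, 11.1, 14.4 and 8.16 FPKM, lower with both than with vehicle at a ratio of 0.661 (0.611 to 0.714).

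Summed per compartment, the cytosolic enzymes with a mitochondrial counterpart among the 8, MTHFD1 and SHMT1, gave 18.5, 17.3, 17.9 and 13.3 FPKM with vehicle, histidine, 6-MP and both. The mitochondrial MTHFD2, MTHFD1L and SHMT2 gave 92.5, 93.2, 92.2 and 107.9 FPKM. The mitochondrial sum was 4.99, 5.40, 5.14 and 8.09 times the cytosolic one, which is 1.62 times higher with both than with vehicle. With TYMS counted as cytosolic the ratio was 2.45, 2.57, 2.55 and 2.98, or 1.21 times higher. The share of SHMT2 in the mitochondrial sum was 57.9% to 66.1% with the deposited lengths and 43.4% to 49.0% with those of GENCODE 29, where the ratio was 1.67 times higher with both. The sum over all 8 genes stayed between 177.8 and 181.7 FPKM.

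In order of mean FPKM over the libraries the genes ran SHMT2 (59.1), FPGS (36.1), MTHFD2 (21.1), TYMS (19.8), MTHFD1L (16.3), MTHFD1 (13.0), SLC19A1 (10.3) and SHMT1 (3.81). The ranges over the libraries overlapped between neighbours from MTHFD2 down to SLC19A1. Within each library the order was the same, except that TYMS and MTHFD1L changed places with 6-MP, at 18.2 and 18.3 FPKM. The values of SHMT2 and FPGS overlapped with those of no other gene of the 8, and neither did those of SHMT1. The place of MTHFD2 depends on its length. The deposited values rest on 11443 bases, and with the 4870 bases of its exons in GENCODE 29 its mean would be 49.5 FPKM. For MTHFD1 the lengths were 12208 and 9377 bases, with a mean of 16.9 FPKM from the latter. Length cancels in the read ratios of a gene between libraries. It does not cancel fully in the fold changes, whose scale shrinks the changes of weakly expressed genes.

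The departure from additivity sets the combined log2 value against the sum of the effects of both monotherapies. It was -0.73 for MTHFD1L and for FPGS, -0.45 for SLC19A1 and -0.44 for MTHFD1. It was positive for SHMT2 at 0.41, TYMS at 0.34, MTHFD2 at 0.31 and SHMT1 at 0.15, beside a median of 0.11 over all genes tested. For SHMT1 the value from reads, 0.18, was close to its counting standard error of 0.15.

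The neighbouring genes of the pathway were taken from lists of 51 genes, of which 43 are not among the 8. Of these, 24 reached that mean FPKM of 1. In the combined treatment against vehicle 5 were higher and 14 lower beyond the counting interval, where 42.7% of all genes tested were higher and 20.8% lower (30.2% and 30.8% with median-ratio scaling, where 3 of the 24 were higher and 16 lower). None passed the fold threshold (6.53% of all genes), and their median log2 fold change was -0.17. In the cytosolic list of 9 genes, 7 were tested, 2 higher and 4 lower beyond the interval, with a median of -0.37. With median-ratio scaling none of the 7 was higher and 4 were lower. The unscaled counts here and in the lists that follow are to be read against 42.7% higher and 20.8% lower. Scaled counts are to be read against 30.2% higher and 30.8% lower. The lowest cytosolic gene was GART, which uses formyl folate in purine synthesis, at 27.5, 27.2, 27.8 and 17.4 FPKM (log2 fold change -0.63), and TYMS was the highest. In the mitochondrial list of 9 genes, 6 were tested, 2 higher and 3 lower, with a median of -0.09, and its extremes were MTHFD2 and MTHFD1L.

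Among the 8 transport and polyglutamation genes 3 were tested, none higher and 2 lower beyond the interval (42.7% and 20.8% of all genes), with a median of -0.42. With median-ratio scaling none was higher and 3 were lower (30.2% and 30.8% of all genes). The gene with the smallest difference was GGH, which removes the glutamate tail, at 5.82, 5.90, 6.05 and 5.35 FPKM. FPGS over GGH was 6.25, 6.98, 6.62 and 5.02, a relative change with both of 0.804 (0.713 to 0.908). The folate receptors FOLR1, FOLR2 and FOLR3 and the carriers SLC46A1 and SLC25A32 had a mean FPKM below 1, so SLC19A1 was the only listed folate transporter above that level.

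For glycine cleavage, which also feeds mitochondrial folate, 1 of 4 genes was tested. It was DLD, a subunit shared with other complexes, at a log2 fold change of -0.23 and lower beyond the interval. Beyond the interval lay 63.5% of all genes tested in this comparison, 42.7% higher and 20.8% lower. All 3 serine synthesis genes were lower beyond it, from PSPH at -0.41 to PHGDH at -0.17. SHMT2, which uses serine, was higher. In the remethylation and methionine cycle list 6 of 8 genes were tested, with 1 higher and 4 lower beyond the interval and a median of -0.24. The higher gene was AHCY, which breaks down S-adenosylhomocysteine, and its call is lost with median-ratio scaling. The lowest of the list was MAT2A, which makes S-adenosylmethionine, at 157.8, 174.6, 158.3 and 119.4 FPKM (-0.40), and the highest was GNMT at 0.34, from 37 and 46 reads and within counting error. All 6 deoxynucleotide genes around TYMS were tested, with 3 higher and 2 lower and a median of 0.19. With median-ratio scaling 3 were higher and 3 lower, beside 30.2% and 30.8% of all genes. Thymidine kinase TK1, the salvage route to dTMP, was the highest at 81.7, 88.2, 81.4 and 141.6 FPKM (0.79), and the dCTP pyrophosphatase DCTPP1 the lowest at -0.41.

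The breakdown of histidine to tetrahydrofolate intermediates was near the limit of these libraries. None of HAL, UROC1, AMDHD1 and FTCD had a mean FPKM of at least 1. The combined library, although the shallowest, had 25443 genes above 0 against 23635 to 23978 in the others. Of the 19 listed genes under that mean FPKM, 12 had more reads there than with vehicle, 5 had fewer and 2 had the same number. The 19 include HAL, UROC1, AMDHD1 and FTCD, each with more reads in the combined library than with vehicle. SARDH had 63 reads against 30 and GLDC 73 against 36, while GCSH had 24 against 29 and SLC25A32 6 against 14. The part of this in the values of the histidine genes was not tested. FTCD, which passes the formimino group of histidine to tetrahydrofolate, had 4, 4, 2 and 16 reads in vehicle, histidine, 6-MP and both, a ratio of the combination to vehicle of 4.44 (1.43 to 18.2). AMDHD1 had 14, 30, 16 and 43 reads, with ratios to vehicle of 1.98 with histidine (1.02 to 4.04) and 3.41 with both (1.83 to 6.75). HAL, which opens the pathway, had 9, 22, 8 and 10 reads, with ratios of 2.26 with histidine (1.00 to 5.58) and 1.23 with both (0.450 to 3.43), and UROC1 had at most 1 read in a library. At 0.362 FPKM in the combined library FTCD remained far below SHMT1, the lowest of the 8 genes.

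Genes whose pattern over the 4 libraries came closest to MTHFD1L and FPGS, the members with the widest range on the log2 scale, were sought among the 6728 protein-coding genes whose mean FPKM reached 5. Likeness was the Euclidean distance between centred log2(FPKM + 1) values. HSPBP1 (0.020), SLC25A22 (0.022) and MFNG (0.031) were nearest to MTHFD1L, and SLC25A22, a mitochondrial glutamate carrier, was at 8.48, 8.95, 9.04 and 5.20 FPKM. Nearest to FPGS were RRP9 (0.019), COMMD10 (0.031) and SNRNP40 (0.032).

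Promoter windows of 300 bases around each RefSeq start site (GRCh38.p14, 250 before and 50 after) were available for 7 of the 8 genes, in 15 windows, without SHMT2. They were searched on both strands for the E-box CACGTG, bound by MYC and its relatives, for TGATGNAA, the core of the amino acid response element that ATF4 binds, and for the E2F letters TTTCGCGC and TTTGGCGC. These motifs do not contain one another. MTHFD1L and SLC19A1 had 4 windows each, FPGS 3 and the others 1, and genes with more windows had more bases searched. The stretches below show each E-box and TGATGNAA site found. Capitals mark the motif, and each stretch is read along its gene.
MTHFD1 E-box, chr14:64388326-64388355: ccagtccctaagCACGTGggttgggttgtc
MTHFD1L E-box, chr6:150866320-150866349: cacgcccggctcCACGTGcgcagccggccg
SLC19A1 E-box, chr21:45541797-45541826, minus strand: ttcgcgcccaggCACGTGttgcttcgggac
FPGS E-box, chr9:127803093-127803122: tgggcgcgacgaCACGTGggcctgcgctga
MTHFD1L TGATGNAA, chr6:150866346-150866375: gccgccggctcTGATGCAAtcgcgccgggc

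The first base of the E-box lay 15 bases before the start in MTHFD1 and 76 bases before 1 of the 3 starts in FPGS. In MTHFD1L it lay 154, 115 or 1 base before a start in 3 of its 4 windows, which overlap, and in SLC19A1 it lay after the start in 1 of 4 windows. The single windows of SHMT1, TYMS and MTHFD2 did not hold these letters. An E-box was present in 7.23% of the 34943 windows of the table and in 12.8% of the tested genes with a window. Over those genes the median log2 fold change of the combined treatment against vehicle was 0.07 with an E-box and 0.12 without. TGATGNAA was found in MTHFD1L only, and in 3.62% of all windows. The E2F letters were in none of the members' windows, and in 0.507% and 0.650% of all windows. A match describes the letters and not the binding of a factor.

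Of the 8 genes 7 overlap other genes of the table, 15 in all and 12 of them on the opposite strand, and FPGS overlaps none. Of these 15 genes 3 had a mean FPKM of at least 1. They were ENOSF1 at the TYMS locus, ZBTB25 at MTHFD1 (1.90 to 2.55 FPKM) and NDUFA4L2 at SHMT2 (1.67 to 2.10 FPKM). Per length each was below its partner, and ENOSF1 had more reads than TYMS. Processed pseudogenes of MTHFD1, MTHFD2 and SHMT1 carried at most 6 reads in a library.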

How the data were processed

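Poly(A) RNA of 4 Reh-6-MPR cultures was sequenced from stranded libraries by a company that the authors commissioned. The authors deposited FPKM per gene. Per the submitters' processing notes the tools were Trimmomatic, HISAT2, Cufflinks and HTSeq on hg38 (GRCh38). Versions, annotation release and strand setting are not given in the sources used here. Whole reads were recovered from the FPKM steps with gene lengths near those of GENCODE 29 (multiples accepted within 10% of the annotated length, a rule set after totals had been compared, so that these totals are no independent check). Reads came out whole for 29832 of 29833 genes, with a largest distance from a whole read of 0.00007. The search for lengths selects for whole reads, so this is no independent check either. Recovered totals were 99.970% to 100.000% of the library totals. Fold changes are differences of log2(FPKM + 1) over 12750 genes (mean FPKM of 1 or more). No test was run, since each treatment has 1 library, and the count test on recovered reads was not run for the same reason. Intervals are exact Clopper-Pearson 95% intervals of read ratios.

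The members, gene lists, motifs and rules were chosen with earlier results of these data known. Of each list, the highest and lowest tested gene in the combined treatment against vehicle are named, with FTCD, and the 3 nearest genes in pattern for the 2 members with the widest range. Some listed genes and markers are not named here, and the counts include them. Other listed genes named without such a rule were chosen after their values were seen. Alternatives were a pseudocount of 0.1, no filter, a mean FPKM of at least 5, median-ratio and TPM scaling, thresholds of 0.5 and 1.5, and read ratios. The compartment sums with TYMS or GENCODE 29 lengths, the gene ratios with those lengths, and the scaled counts of the lists, beyond every library and in opposite directions, were added after seeing the data. Scripts were tested on simulated data. Computation used scipy 1.17.1, pandas 2.3.3 and numpy 2.4.6 under Python 3.11.15, with matplotlib 3.10.9 for plots.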

Additional observations from a re-analysis of the deposited data

Results flagged for a closer look

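FPGS was singled out because its level moved in opposite directions depending on the other agent. Against vehicle, 6-MP alone gave a log2 fold change of 0.1347, and against histidine the combined treatment gave -0.5968. Likewise histidine alone gave 0.1747 against vehicle, and the combined treatment gave -0.5567 against 6-MP. All 4 counting intervals excluded no difference. With 1 library per treatment the difference between these effects was not tested. The same kind of reversal was found in 5.33% of all genes tested for 6-MP and in 5.88% for histidine, and in none of the other 7 genes. With scaling by the median ratio SHMT2 also showed it for 6-MP, beside 5.59% of all genes tested.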

How the results depend on the processing

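The 8 alternatives gave 0 members past the fold threshold in every comparison, except that with the fold threshold at 0.5 the combined treatment had 1 against vehicle (MTHFD1L; 27.1% of all genes tested), 2 against 6-MP (MTHFD1L and FPGS; 26.2%) and 2 against histidine (MTHFD1L and FPGS; 25.4%). Of 40 counts, 37 kept their value, and of 235 fold changes of single genes 17, all in the combined treatment and under median-ratio scaling, moved by more than the half-width of their counting interval. None whose interval excluded no difference changed direction. The median of the 8 genes moved from -0.39 to -0.53 against vehicle, from -0.32 to -0.44 against 6-MP and from -0.23 to -0.34 against histidine under that scaling. A mean FPKM of at least 5 left out SHMT1, and the median of the other 7 genes was -0.44 against 6-MP and -0.43 against histidine. No paired analysis was possible because there is a single library of each treatment, and for the same reason no replicate could be left out. Of the 8 genes SHMT1 had the fewest reads, 312 to 477 a library, and the histidine breakdown genes had 0 to 43. The spread between cultures is unknown, so a difference beyond the counting interval is a difference between these libraries.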
